A study of Mus musculus with 4 samples.

Results

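Sox7, Sox17 and Sox18 (the SoxF factors), Klf2 and Klf4 (Krüppel-like factors), Gata2, Tal1, Nr2f2, Foxf1 and Mef2c are 10 transcription factors of endothelial identity and of the response to blood flow. They were taken by name, and all 10 are among the 20076 genes of a single-cell RNA-seq count matrix of whole mouse lung. The libraries labelled WT came from 2 mice with floxed Erg alleles (ERG fl/fl) and no Cre. Those labelled ERG CKO came from 2 mice with the same ERG fl/fl alleles and CDH5-CreER(T), in which a tamoxifen-inducible Cre is driven by the promoter of Cdh5, a gene of endothelial cells (ECs). Both groups received 5 injections of 0.5 mg tamoxifen, 1 each day, and lungs were taken 90 days afterwards, from female and male mice on a C57/BL6 background whose age at harvest is not given in the sources used here. WT mice thus had tamoxifen without Cre, and effects of CreER(T) itself cannot be told apart from those of the floxed alleles.

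SoxF factors are closely related HMG-box proteins that act in part redundantly in vessel formation, with Sox17 known for arterial fate and Sox18 for lymphatic and blood vessel development. Klf2 and Klf4 are induced in ECs by laminar flow and drive anti-inflammatory and anticoagulant genes, and MEF2 factors such as Mef2c activate Klf2. Nr2f2 (COUP-TFII) sets venous fate and represses Notch signalling, Foxf1 is required for the lung capillary bed, and Gata2 and Tal1 act in ECs and in blood cells. ERG, the factor whose gene was targeted, is an ETS-family activator found with many of these factors at endothelial enhancers.

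The 4 libraries held 1852 to 3097 cells and 11263911 to 18646776 UMIs (unique molecular identifiers, each marking 1 captured RNA molecule), and 7 barcode sequences occurred in more than 1 library. Clustering that left the 10 genes out gave 621 and 703 ECs in the WT libraries, and 744 and 501 ECs in those labelled ERG CKO. The 8 endothelial markers together made up 15431 to 19788 CPM (a gene's UMIs scaled to the total UMIs of those cells) in the ECs of each library and 139 to 265 CPM in its T cells. Erg itself was at 86.5 and 90.9 CPM in WT ECs and at 104 and 83.5 CPM in ERG CKO ECs, so the groups overlapped (log2 fold change 0.05 by edgeR, SE 0.15, adjusted p = 0.914). The matrix gives 1 count per gene, so transcripts with and without the floxed part cannot be told apart and Erg counts check neither the deletion nor the labels. Xist had UMIs in replicate 1 and Ddx3y in replicate 2 of both groups. A further cluster of 942 cells with endothelial markers but a median of only 970 UMIs stayed out of the ECs.

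Across the lung, 7 of the 10 genes had their highest mean level in ECs, over named classes and libraries with at least 10 cells. Sox7 was at 175 ± 56.9 CPM in ECs (SD, n = 4 libraries, both groups together), Sox17 at 286 ± 64.1 and Sox18 at 409 ± 206. In T cells the SoxF genes lay at or below 2.97 CPM on average. Platelets, fibroblasts and mural cells came next for all SoxF genes, and their ranges over libraries overlapped each other. In fibroblasts Sox7, Sox17 and Sox18 stood at 39.2%, 27.0% and 30.2% of their EC level, and the 8 endothelial markers together stood at 32.1% of theirs. In platelets the SoxF genes stood at 43.5%, 47.0% and 42% and the endothelial markers at 47.2%, and in mural cells the figures were 30.8%, 23.4% and 35.6% against 34.7%. Relative to ECs, the SoxF level in these classes was thus close to that of the endothelial markers, and whether their cells transcribe SoxF genes was not tested.

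The other members differed in how far they were shared with other cells. Klf2 was highest in ECs at 2761 ± 400 CPM, above non-classical monocytes at 1524 ± 87.0 CPM with no overlap between libraries, and it stood at 1099 ± 204 CPM in T cells and 1111 ± 234 CPM in B cells. Klf4 was also highest in ECs, at 1366 ± 417 CPM, followed without overlap by non-classical monocytes at 858 ± 124 CPM and then by classical monocytes at 773 ± 159 CPM, whose ranges overlapped. Foxf1 was at 869 ± 43.4 CPM in ECs, with mural cells next among named classes at 469 ± 49.3 CPM. Tal1 was low everywhere, at 59.6 ± 8.73 CPM in ECs and 53.6 ± 18.5 CPM in platelets, which overlapped.

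Gata2, Nr2f2 and Mef2c had their highest level outside ECs. Gata2 was at 673 ± 213 CPM in mast cells or basophils, in the 2 WT libraries that had at least 10 of these cells, and at 361 ± 70.3 CPM in ECs. Nr2f2 was at 400 ± 102 CPM in mural cells and 340 ± 47.3 CPM in fibroblasts, both far above the 51.4 ± 29.6 CPM of all ECs. Mef2c was at 865 ± 110 CPM in B cells, 331 ± 54.3 CPM in interstitial macrophages, 301 ± 52.0 CPM in non-classical monocytes and 172 ± 26.4 CPM in ECs.

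**Figure D1:**
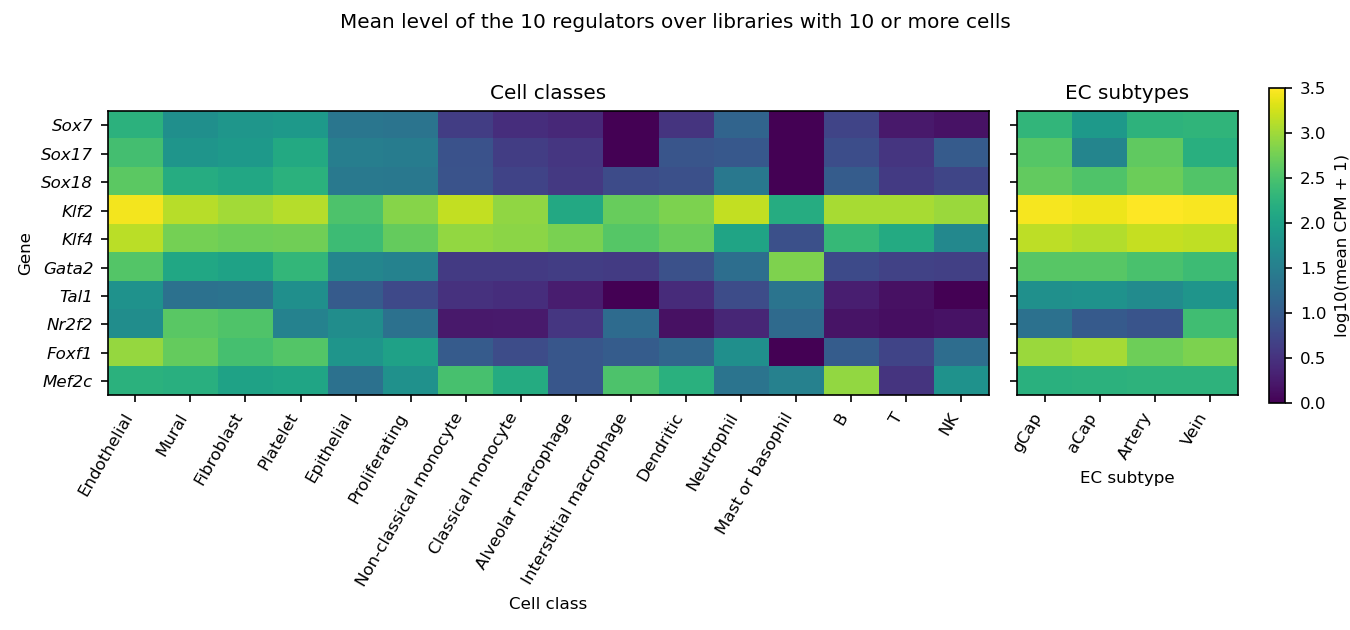
Mean level of the 10 genes by cell class (left) and in 4 EC subtypes (right), as log10 of the mean CPM plus 1 over libraries with at least 10 cells, with brighter squares for higher levels. The SoxF rows are brightest in ECs, Nr2f2 in mural cells, fibroblasts and veins, and Mef2c in B cells.

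Among EC subtypes aCap ECs had the lowest Sox17 level, veins a high Nr2f2 level, and both capillary types more Foxf1 than the larger vessels. The gCap ECs (general capillary cells) and aCap ECs (aerocytes, the thin gas-exchange capillary cells) are the 2 capillary types of the lung. Sox17 was highest in arterial ECs at 437 ± 146 CPM and in gCap ECs at 372 ± 86.9 CPM, which overlapped. It was at 215 ± 78.8 CPM in lymphatic and 160 ± 56.8 CPM in venous ECs, and lowest in aCap ECs at 38.1 ± 16.2 CPM, without overlap with veins. Nr2f2 was at 267 ± 64.5 CPM in venous and 249 ± 118 CPM in lymphatic ECs, which overlapped, but at 19.2 ± 18.2 CPM in gCap, 8.70 ± 9.33 CPM in aCap and 7.23 ± 11.7 CPM in arterial ECs. Sox7 was at 203 ± 68.2 CPM in gCap, 196 ± 71.7 CPM in venous, 180 ± 50.9 CPM in arterial, 128 ± 53.0 CPM in lymphatic and 77.7 ± 8.70 CPM in aCap ECs. Foxf1 was higher in aCap (1059 ± 109 CPM) and gCap ECs (929 ± 69.1 CPM) than in venous ECs (653 ± 78.1 CPM), without overlap between gCap and venous libraries, and than in arterial ECs (528 ± 130 CPM). The name lymphatic is uncertain, since the cluster also passed 5 gCap markers. At the lower clustering resolution a cluster led by the same genes (Ccl21a, Reln and Prox1) held only 24 cells. The arterial name varied too. It went to 14 to 20 cells in a library at that resolution and 6 to 10 without alignment, against 30 to 45 here. Sox18, Klf2, Klf4, Gata2, Tal1 and Mef2c overlapped between neighbouring subtypes throughout.

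The genes lie apart in the genome. In the GENCODE M21 annotation of GRCm38 (mm10), Sox7 is at chr14:63943673-63950732, Sox17 at chr1:4490931-4497354, Sox18 at chr2:181669836-181671640, Klf2 at chr8:72319033-72321656 and Klf4 at chr4:55527143-55532466. Foxf1, at chr8:121084386-121088144, is overlapped on its own strand by Gm20388, so its counts are less certain where reads fall in the shared part. The RefSeq promoter table (GRCm38.p6) held 10 start sites of 6 members, namely Klf2, Klf4, Gata2, Tal1, Nr2f2 and Mef2c, and none of Sox7, Sox17, Sox18 or Foxf1. In the 250 bases before each start, the ETS core AGGAAG or CGGAAG was searched on both strands and found before 3 of the 10 start sites, of 2 members. It was present before 39.2% of all 32851 start sites of the table. A MEF2 site, CTA and TAG with any 4 bases between, was searched likewise. It lay 118 bases before the start of Klf2 and before no other member's start, and was present before 3.20% of all start sites. Shown are the promoter of Klf2, with the MEF2 site in capitals, and the promoters of Nr2f2 and Mef2c (the first of its 3 starts), with the ETS core in capitals. They are read 5′ to 3′ on the strand of the gene, from chr8:72318812-72319061 (plus strand), chr7:70366747-70366996 (minus strand) and chr13:83503784-83504033 (plus strand).
Klf2: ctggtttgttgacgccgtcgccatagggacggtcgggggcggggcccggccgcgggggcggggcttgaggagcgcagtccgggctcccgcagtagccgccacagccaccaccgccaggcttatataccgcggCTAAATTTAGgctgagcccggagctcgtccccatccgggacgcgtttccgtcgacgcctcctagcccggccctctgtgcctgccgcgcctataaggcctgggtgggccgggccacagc
Nr2f2: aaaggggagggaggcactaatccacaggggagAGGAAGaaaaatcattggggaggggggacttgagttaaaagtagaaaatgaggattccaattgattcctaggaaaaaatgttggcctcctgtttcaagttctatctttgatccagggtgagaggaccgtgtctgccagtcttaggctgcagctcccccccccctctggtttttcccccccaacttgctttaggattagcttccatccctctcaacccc
Mef2c: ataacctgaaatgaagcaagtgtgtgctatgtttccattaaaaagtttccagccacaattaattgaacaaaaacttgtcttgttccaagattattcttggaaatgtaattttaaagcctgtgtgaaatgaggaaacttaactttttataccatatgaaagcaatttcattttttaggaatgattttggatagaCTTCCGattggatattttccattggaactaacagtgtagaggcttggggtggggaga
A match is a description of the letters and not evidence of binding.

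The first question was whether the regulators differed in ECs between the libraries labelled ERG CKO and WT. Sox7 was at 202 and 239 CPM in WT ECs and at 110 and 148 CPM in ERG CKO ECs. Sox18 was at 407 and 685 CPM in WT and at 190 and 354 CPM in ERG CKO. Sox17 was at 334 and 318 CPM in WT and at 192 and 301 CPM in ERG CKO. For each SoxF gene both ERG CKO libraries thus lay below both WT libraries, with little room between the groups for Sox17. The log2 fold changes (ERG CKO minus WT) were -0.82 for Sox7 (SE 0.16, adjusted p = 0.0502), -1.05 for Sox18 (SE 0.32, adjusted p = 0.159) and -0.45 for Sox17 (SE 0.20, adjusted p = 0.340), by edgeR's quasi-likelihood test on counts summed per mouse over 10765 genes. None passed the threshold of 0.05. Sox7 lay next to it and passed it in 11 of 17 alternative settings, with values from -1.08 to -0.45 over all 17. Among those that passed were DESeq2 (adjusted p = 0.00791) and the fits without ERG CKO replicate 1 (-0.64) or replicate 2 (-1.02). Sox7 missed the threshold without either WT library (-0.93 and -0.70). It also missed it at the lower clustering resolution, with ECs gated cell by cell, with equal weights for gCap and aCap ECs, and with the low-depth cluster added. Sox18 passed in 5 of 17 settings, among them without ERG CKO replicate 2 (-1.55), the library in which it was higher, and came down to -0.64 when WT replicate 2 was left out. Sox17 passed in 2 of 17, among them the fit that left out ERG CKO replicate 2 (-0.79), and was at -0.18 when ERG CKO replicate 1 was left out.

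Klf2, the flow-induced factor whose promoter holds the MEF2 site, was at 3003 and 2230 CPM in WT ECs and at 3127 and 2683 CPM in ERG CKO ECs, and the groups overlapped (log2 fold change 0.11, SE 0.18, adjusted p = 0.837). Klf4 was at 1958 and 1293 CPM in WT and at 1235 and 980 CPM in ERG CKO. Its groups did not overlap, but the WT libraries differed from each other by more than the groups' nearest libraries did (-0.59, SE 0.22, adjusted p = 0.242), and it passed in 3 of 17 alternatives. It was at -0.80 (adjusted p = 0.0346) without ERG CKO replicate 1 and at -0.26 (adjusted p = 0.829) when WT replicate 1 was left out.

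Gata2 was at 450 and 365 CPM in WT and at 279 and 351 CPM in ERG CKO (-0.41, SE 0.17, adjusted p = 0.284). Mef2c was at 161 and 142 CPM in WT and at 203 and 181 CPM in ERG CKO, above WT in both libraries (0.31, SE 0.13, adjusted p = 0.322). Foxf1 was level, at 919 and 841 CPM in WT and at 891 and 826 CPM in ERG CKO (-0.07, SE 0.13, adjusted p = 0.862), and so was Tal1 (-0.04, SE 0.18, adjusted p = 0.958). Nr2f2 was at 45.0 and 35.2 CPM in WT and at 94.9 and 30.5 CPM in ERG CKO, so the groups overlapped (0.66, SE 0.46, adjusted p = 0.570). Its direction rested on ERG CKO replicate 1, without which it was -0.46. Leaving out the other ERG CKO library gave 1.22 (adjusted p = 0.00134), and giving gCap and aCap ECs equal weight gave 2.03, which also passed.

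In all, 0 of 10 members passed in ECs, against 2.69% of all genes tested, and 4 had an unadjusted p under 0.05 (Sox7, Sox18, Klf4 and Gata2), against 15.9% of all genes. DESeq2 called 1, Sox7, and the count was 2 without ERG CKO replicate 1 and 4 leaving out replicate 2 of that group. With the replicate number as a block, which in both groups separates the library with Xist from that with Ddx3y, 4 members passed (Sox7, Sox17, Sox18 and Klf4). The groups did not overlap for 6 of 10 members (5 lower and 1 higher in ERG CKO), against 46% of all genes, so this count is not far from the background. The median log2 fold change of the members was -0.24, against 0.01 over all genes tested. In the ECs platelet markers were higher in all 5 of 5 genes (28.7 and 52.2 CPM summed in WT, 153 and 86.9 CPM in ERG CKO), and erythroid markers in 3 of 3 (29.8 and 40.3 CPM against 1069 and 1578 CPM). Their part in these differences was not tested. In the low-depth cluster with endothelial markers, cells that had no part in the EC fit but came from the same mice, no member had an adjusted p under 0.309, the lowest being that of Mef2c (1.08, SE 0.35, higher in both ERG CKO libraries), with -0.90 for Sox7 (SE 0.34), -0.88 for Sox18 (SE 0.38) and -0.78 for Klf4 (SE 0.29).

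**Figure D2:**
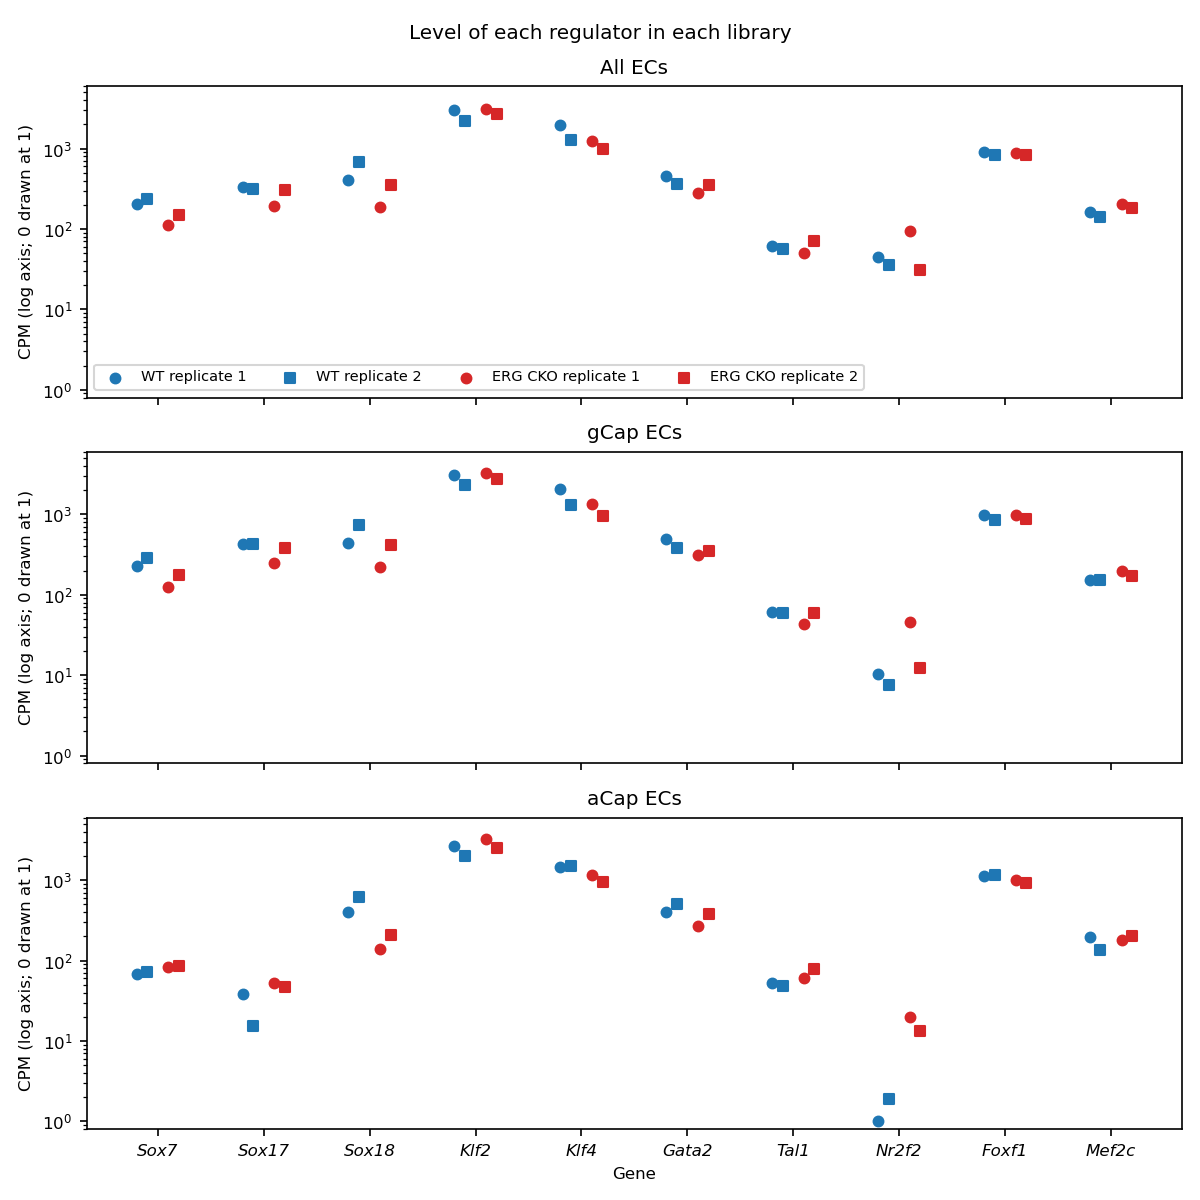
Level of each gene in CPM (log axis, 0 drawn at 1) in each of the 4 libraries, for all ECs, gCap ECs and aCap ECs, with WT in blue and ERG CKO in red, replicate 1 as circles and replicate 2 as squares. In ECs both red points lie below both blue points for Sox7, Sox17, Sox18, Klf4 and Gata2, and in aCap ECs for Sox18, Klf4, Gata2 and Foxf1.

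The same comparison within capillary types asks whether the members differed apart from the mix of subtypes. In gCap ECs (429 and 465 cells in WT, 362 and 256 in ERG CKO) Sox7 was at 226 and 284 CPM in WT and at 125 and 176 CPM in ERG CKO (-0.81, SE 0.19, adjusted p = 0.0577). Sox18 was at 434 and 742 CPM in WT and at 223 and 413 CPM in ERG CKO (-0.93, SE 0.29, adjusted p = 0.169), and Sox17 at 424 and 433 CPM and at 245 and 384 CPM (-0.49, SE 0.19, adjusted p = 0.294). Nr2f2, the venous factor, was at 10.3 and 7.63 CPM in WT gCap ECs (18 and 14 UMIs) and at 46.4 and 12.3 CPM in ERG CKO (99 and 16 UMIs). Its difference (1.79, SE 0.53, adjusted p = 0.149) did not pass, and the ERG CKO libraries lay further apart from each other than ERG CKO replicate 2 lay from WT. Klf2, Klf4, Gata2, Tal1, Foxf1 and Mef2c had adjusted p-values of 0.257 and above. In gCap ECs 0 of 10 members passed, against 2.04% of all genes tested, and 6 had an unadjusted p under 0.05, against 13.2% of all genes. DESeq2 called none of the 10 either, whereas edgeR called 2 when replicate 1 of either group was left out and 4 when ERG CKO replicate 2 was. With the replicate block it called 4 (Sox7, Sox18, Klf4 and Nr2f2). The groups did not overlap for 6 of 10 members, against 42.6% of all genes. All 8 gCap markers were lower in ERG CKO gCap ECs (8529 and 8417 CPM summed in WT, 6192 and 6600 CPM in ERG CKO), and erythroid markers stood at 25.7 and 37.1 CPM in WT and 2178 and 3206 CPM in ERG CKO. Venous markers summed to 429 and 343 CPM in WT and 777 and 596 CPM in ERG CKO gCap ECs, with 5 of 7 higher in both ERG CKO libraries. The part of these in the members' values was not tested.

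In aCap ECs (46 and 72 cells in WT, 130 and 106 in ERG CKO) Sox18 fell. It was at 403 and 613 CPM in WT (136 and 320 UMIs) and at 141 and 206 CPM in ERG CKO (108 and 124 UMIs), so that the lowest WT library lay above both ERG CKO libraries. The log2 fold change was -1.60 (SE 0.23, adjusted p = 5.2e-05), and it passed in 12 of 12 alternatives, between -1.89 and -1.24. Klf4, at 1453 and 1499 CPM in WT and 1146 and 956 CPM in ERG CKO, came next (-0.52, SE 0.17, adjusted p = 0.0532), followed by Gata2 (-0.53, SE 0.20, adjusted p = 0.108). Sox17 was at 38.5 and 15.3 CPM in WT (13 and 8 UMIs) and at 52.2 and 46.6 CPM in ERG CKO (40 and 28 UMIs), higher in both ERG CKO libraries but not past the threshold (0.96, SE 0.40, adjusted p = 0.152). Sox7 was at 68.1 and 72.8 CPM in WT and 83.5 and 86.5 CPM in ERG CKO (0.23, SE 0.26, adjusted p = 0.70). Nr2f2 had 0 and 1 UMIs in the WT sums and was removed by the filter on low counts. In aCap ECs 1 of 9 members tested passed, against 11.2% of all genes, and the groups did not overlap for 7 of 9, against 49.2% of all genes. With the replicate block 3 passed (Sox18, Klf4 and Gata2). All 9 aCap markers were lower in ERG CKO aCap ECs (16432 and 16498 CPM summed in WT, 5596 and 7892 CPM in ERG CKO), so the cells given this name differ between groups in the markers that name them. Of the 8 endothelial markers 7 were lower and 1 higher (24143 and 24063 CPM summed in WT, 14709 and 14852 CPM in ERG CKO). Platelet markers were higher in 5 of 5 and venous markers in 5 of 7. The part of these in the Sox18 value was not tested.

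Whether a member's change differed between the 2 capillary types was tested directly, as the aCap change minus the gCap change with the library as a block. All 3 SoxF genes differed. The difference was 1.05 for Sox7 (SE 0.26, adjusted p = 0.0184) and 1.48 for Sox17 (SE 0.40, adjusted p = 0.0294), both with negative values in gCap and positive ones in aCap ECs. For Sox18, with negative values in both types, it was -0.66 (SE 0.18, adjusted p = 0.0331). The other 7 members had adjusted p-values of 0.283 and above, so that 3 of 10 members passed, against 5.94% of all genes. These calls rested on few libraries. Without WT replicate 2 none passed (0.96 for Sox7, 0.86 for Sox17 and -0.71 for Sox18). Without ERG CKO replicate 1 Sox7 (0.85) and Sox17 (1.08) did not pass, and without ERG CKO replicate 2 (-0.49) or WT replicate 1 (-0.59) Sox18 did not. Sox17 and Sox7 rest on 8 to 64 UMIs per library in aCap ECs, and counts of this size limit both values.

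**Figure D3:**
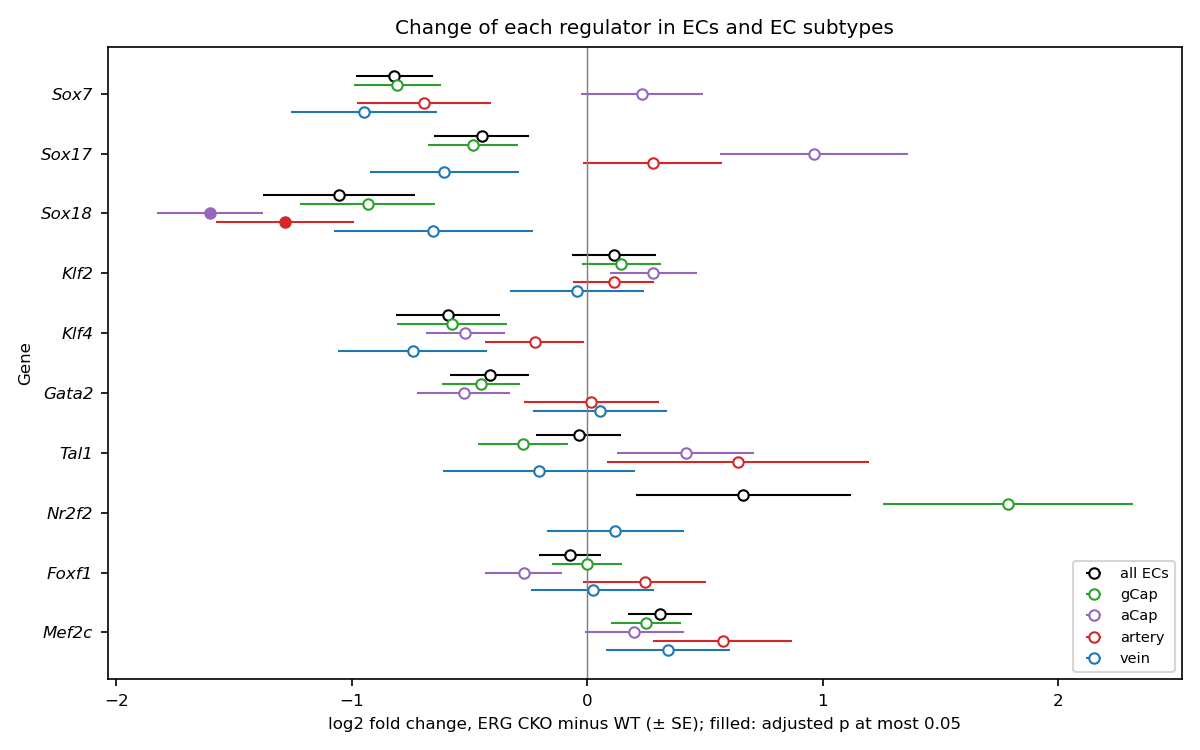
Log2 fold change of each gene (ERG CKO minus WT, horizontal axis, bars ± SE) in all ECs and 4 EC subtypes, with filled points for an adjusted p of at most 0.05. The aCap points of Sox7 and Sox17 lie right of 0 while their gCap points lie left, and the filled points are Sox18 in aCap and arterial ECs.

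Arterial and venous ECs were small groups, with 30 to 45 and 25 to 83 cells in a library, and the arterial name varied with the clustering. In arterial ECs Sox18 fell, from 586 and 837 CPM in WT to 210 and 404 CPM in ERG CKO (-1.28, SE 0.29, adjusted p = 0.0285), and it was 1 of 9 members tested to pass, against 1.53% of all genes. It did not pass without WT replicate 1 (-1.52), WT replicate 2 (-1.04) or ERG CKO replicate 1 (-0.84). Sox17, the arterial SoxF gene, was at 328 and 442 CPM in WT and 336 and 642 CPM in ERG CKO arteries, and the groups overlapped (0.28, SE 0.30, adjusted p = 0.834). In venous ECs 0 of 10 members passed, against 0.188% of all genes, and 2 had an unadjusted p under 0.05 (Sox7 and Klf4), against 7.88% of all genes. Nr2f2 was at 310 and 205 CPM in WT veins and 334 and 220 CPM in ERG CKO veins (0.12, SE 0.29, adjusted p = 0.963). WT had 35 and 53 venous cells, against 83 and 25 in ERG CKO, so that the library with the most venous cells was also that with the highest Nr2f2 level over all ECs. The part of this in the level was not tested.

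Clustering the ECs without aligning the libraries set part of the ERG CKO cells apart. Of 2 such clusters, the first held 376 cells, 1.60% of them from WT, and the second 256 cells, none from WT. Of the ERG CKO aCap ECs, 99 of 130 and 98 of 106 fell in the second. Of the ERG CKO gCap ECs, 127 of 362 and 85 of 256 fell in the first, whose leading genes were haemoglobin genes, F8 and Gja1. The values that follow describe these cells and carry no test, since clusters are built from the same cells. The ERG CKO gCap ECs of the first cluster had Sox18 at 155 and 225 CPM, against 268 and 554 CPM in the ERG CKO gCap ECs of clusters shared with WT. Klf4 was at 964 and 789 CPM in them, against 1603 and 1069 CPM. Sox7 was at 109 and 125 CPM, against 135 and 211 CPM. Sox17 (241 and 477 against 248 and 354 CPM) and Klf2 (2980 and 2772 against 3488 and 2738 CPM) had no common direction. The gCap marker Gpihbp1 was at 356 and 187 CPM in these cells, against 2024 and 1980 CPM in the others. In the ERG CKO gCap ECs of shared clusters Sox7 still lay below both WT libraries (227 and 283 CPM in WT), whereas Sox18 at 268 and 554 CPM overlapped WT at 433 and 744 CPM.

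The share of cells with a UMI was then compared at 1 depth. With every EC thinned to 1000 UMIs (shallower ones, 9 and 9 in WT, 10 and 12 in ERG CKO, were left out), Sox7 was detected in 19.3% and 22.8% of WT ECs, against 9.54% and 11.9% in ERG CKO. Sox18 was detected in 32.2% and 47.3% of WT ECs, against 17.4% and 28.2% in ERG CKO, and Sox17 in 26.8% and 26.4%, against 15.5% and 20.9%. With all UMIs kept, the Sox7 shares were 52.7% and 56.5% (WT) against 40.2% and 43.7% (ERG CKO). In T cells, which should lack SoxF genes, the thinned shares were at most 0.727%, at median depths of 5846 to 6374.5 UMIs against 3982 to 5449 UMIs in ECs. At least 1 SoxF gene was detected in 61.4% and 70.0% of WT ECs, against 37.7% and 49.1% in ERG CKO, and at least 2 in 15.7% and 22.3%, against 4.63% and 10.8%. Sox17 was detected in 6.67% and 1.39% of WT aCap ECs thinned likewise, against 5.38% and 1.89% in ERG CKO. Sox7 was detected there in 6.67% and 9.72%, against 8.46% and 8.49%, so the groups overlapped for both genes. Klf4 was detected in 75.7% and 63.1% of WT ECs, against 56.4% and 53.4% in ERG CKO, and Klf2 in 89.9% and 82.9%, against 86.6% and 83.4%. With 2 mice against 2 the exact permutation test cannot go below p = 0.333, which the SoxF genes, Klf4, Gata2 and Mef2c each gave in ECs (two-sided).

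**Figure D4:**
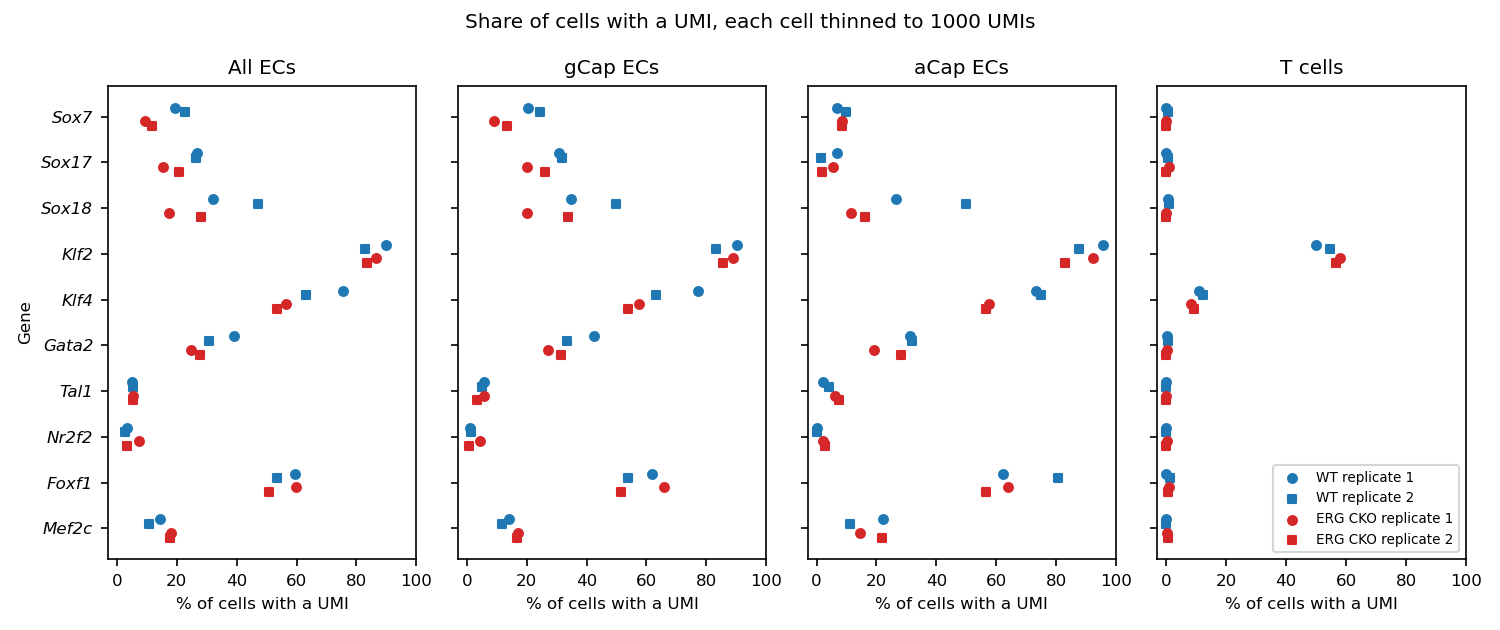
Share of cells with a UMI of each gene (horizontal axis, %) in each library, after thinning each cell to 1000 UMIs, for all ECs, gCap ECs, aCap ECs and T cells, with WT in blue and ERG CKO in red. The red points of Sox7, Sox17 and Sox18 lie left of the blue points in all ECs and gCap ECs, and T cells show UMIs of Klf2 and Klf4 but hardly any of the SoxF genes.

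Outside the cells named ECs, 84 pairs of a member and a class could be tested over 15 classes, and 1 passed, against 0.122% of all pairs of a gene and a class. It was Klf2 in natural killer (NK) cells, which rose from 590 and 753 CPM in WT to 1243 and 1146 CPM in ERG CKO (0.83, SE 0.15, adjusted p = 0.0422). In NK cells 0.0951% of all genes passed. The call was lost without WT replicate 1 (0.63), ERG CKO replicate 1 (0.74) or ERG CKO replicate 2 (0.90). In T cells, where Klf2 controls exit from lymphoid organs, Klf2 was at 882 and 971 CPM in WT and 1301 and 1243 CPM in ERG CKO (0.47, SE 0.12, adjusted p = 0.266), and Klf4 at 180 and 161 CPM and at 108 and 104 CPM (-0.67, SE 0.14, adjusted p = 0.131). In B cells Klf2 differed by 0.47 (SE 0.22, adjusted p = 0.729), and in fibroblasts by 0.64 (SE 0.20, adjusted p = 0.374). Of the 84 pairs, 25 had an unadjusted p under 0.05, against 6.04% of all pairs of a gene and a class, and 8 passed with the replicate block. Of the 84, 9 belong to the low-depth cluster with endothelial markers, 4 of them with an unadjusted p under 0.05. Another 2 belong to an unnamed cytotoxic cluster. In the proliferating cells (15 to 34 in a library, named from cell-cycle markers alone) 6 of 9 members tested were higher in both ERG CKO libraries, against 17.1% of all genes. The largest values were those of Nr2f2 (4.06, with 2 and 0 UMIs in WT), Mef2c (2.32), Foxf1 (2.15) and Gata2 (2.09). Their adjusted p-values were 0.140, 0.160, 0.197 and 0.250. The part of the mix of lineages in these values was not tested. In mural cells (63 and 49 in WT, 37 and 14 in ERG CKO) 4 of 9 were lower in both, against 20% of all genes. Among them were Sox7 at -1.47 and Sox18 at -1.33 (adjusted p = 0.844 and 0.552). The ERG CKO mural sums held only 7 and 0 UMIs of Sox7 and 14 and 3 UMIs of Sox18.

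Whether the EC changes differed from those of other cells was also tested. No member passed in the comparison of ECs with T cells, B cells or fibroblasts, against 0.925%, 0.386% and 0.784% of all genes, and at an unadjusted p under 0.05 the comparisons held 0, 1 and 2 members, against 8.53%, 7.72% and 7.74% of all genes. The T and B cell comparisons could not decide for members with hardly any counts there. The filter on low counts removed 7 members from the T cell fit, all SoxF genes among them, and 5 from the B cell fit. The smallest adjusted p was that of Sox18, whose change in fibroblasts minus that in ECs was 1.04 (SE 0.26, adjusted p = 0.0921). Sox7, Sox17 and Sox18 stood in fibroblasts at 39.2%, 27.0% and 30.2% of their EC level, close to the 32.1% of the endothelial markers. Whether fibroblasts transcribe them was not tested, so that comparison does not settle whether the SoxF change is limited to ECs. For Klf4 the T cell change minus the EC change was -0.10 (SE 0.24, adjusted p = 0.962), with -0.67 in T cells and -0.59 in ECs.

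Genes around the members were read from lists. Of 18 KLF2 and KLF4 flow-response genes, a list of genes that these factors raise or lower, 15 were tested in ECs, 2 rose (against 1.63% of all genes) and 1 fell (against 1.06%), with a median log2 fold change of -0.28. Among those that rose was Angpt2, a Tie2 ligand of activated ECs (13.8 and 22.3 CPM in WT, 86.1 and 133 CPM in ERG CKO, 2.53, SE 0.28, adjusted p = 0.0107), a gene that KLF2 is known to hold down. Plpp3, which breaks down lysophosphatidic acid, fell (-0.74, SE 0.15, adjusted p = 0.0486). Of 15 SoxF and Notch arterial genes, all 15 tested, none rose and 2 fell, with a median of -0.49. They were the arterial connexin Gja4 (254 and 291 CPM in WT, 72.1 and 119 CPM in ERG CKO, -1.57, SE 0.22, adjusted p = 0.0190) and the receptor Notch1 (-0.79, SE 0.16, adjusted p = 0.0486). Of 12 venous genes, 11 were tested and 1 rose, the sialomucin Emcn (298 and 346 CPM in WT, 882 and 985 CPM in ERG CKO, 1.496, SE 0.14, adjusted p = 0.00812). In the same list 1 fell, the apelin receptor Aplnr (-0.90, SE 0.14, adjusted p = 0.0251). The median over all genes tested was 0.01.

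Of 45 other endothelial transcription factors, 42 were tested and 1 passed, against 2.69% of all genes tested in ECs. It was the ETS factor Fli1, which rose from 134 and 129 CPM to 267 and 226 CPM (0.87, SE 0.14, adjusted p = 0.0270). Of 19 other Klf and Sox family genes, 12 were tested and none passed in ECs. Of 20 dissociation stress genes, all tested, 1 rose (Nr4a1, 0.86, SE 0.15, adjusted p = 0.0306), 1 fell (Dnajb1, -0.85, SE 0.14, adjusted p = 0.0304) and 19 had a negative value, with a median of -0.37. Klf4 and Klf2 respond to tissue handling too, and this list was lower in ERG CKO ECs as Klf4 was, at 28076 and 30669 CPM summed in WT and 24172 and 23035 CPM in ERG CKO, and its part in the Klf4 values was not tested. In aCap ECs the list went the other way, at 13475 and 16112 CPM in WT and 22842 and 17725 CPM in ERG CKO, while Klf4 was lower there as well. Calls were lost when WT replicate 1 or WT replicate 2 was left out for Plpp3 (-0.83 and -0.65), Notch1 (-0.68 and -0.89), Aplnr (-0.98 and -0.82), Fli1 (0.90 and 0.84), Nr4a1 (1.03 and 0.70) and Dnajb1 (-0.87 and -0.85), and when WT replicate 2 was left out for Gja4 (-1.47). At the lower clustering resolution Plpp3 (-0.48), Gja4 (-1.36), Notch1 (-0.47), Aplnr (-0.63), Fli1 (0.72) and Nr4a1 (0.60) did not pass. Of 17 alternatives, Angpt2 and Emcn passed in 17, Gja4 and Dnajb1 in 15, Aplnr in 14, Plpp3, Fli1 and Nr4a1 in 13 and Notch1 in 11.

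In gCap ECs the flow-response list had 3 genes called higher and none lower of 13 tested, and the arterial list 1 lower of 14, against 2.04% of all genes. In aCap ECs the flow-response list had 4 higher and 4 lower of 11 tested, and the arterial list 1 higher and 4 lower of 8 tested, against 11.2% of all genes. Among these, named after their values were seen, Notch1 fell from 249 and 230 CPM to 47.0 and 53.2 CPM (-2.28, SE 0.22, adjusted p = 5.5e-07). Dll4, the endothelial Notch ligand, fell from 130 and 107 CPM to 31.3 and 38.2 CPM (-1.79, SE 0.28, adjusted p = 0.000159). Both passed in all of their 12 and 11 alternatives. Angpt2 had 0 UMIs in both WT aCap sums and 247 UMIs in ERG CKO, at least 51.8-fold higher against a floor of 3 counts over the WT group, a bound that covers counting error only. Hey2, the arterial-list gene that rose, had 0 UMIs in WT and 34 UMIs in ERG CKO, at least 7.12-fold higher by the same bound. Sox11, a SoxC gene, fell in gCap and rose in aCap ECs. It was at 333 and 451 CPM in WT gCap and 215 and 237 CPM in ERG CKO gCap ECs (-0.83, SE 0.17, adjusted p = 0.0384), and at 44.4 and 23.0 CPM in WT aCap and 171 and 140 CPM in ERG CKO aCap ECs (2.26, SE 0.30, adjusted p = 2.3e-05). The gCap call held in 10 of 13 alternatives, with values between -1.02 and -0.51 over all 13. Among those that lost it was the fit without WT replicate 2 (-0.60).

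The genes whose levels were most like those of each member were found over 61 sums of a class and a library, in 16 named classes, by Pearson's r of log2(CPM + 10). The sums share libraries and, within a library, any RNA carried between cells. The closest were Shank3 for Sox7 (r = 0.957), Bvht for Sox17 (r = 0.958), Cyyr1 for Sox18 (r = 0.953) and Tmem100 for Foxf1 (r = 0.980). For Sox18 the second was Tek, the Tie2 receptor (r = 0.950). Gata2 was closest to Tal1 (r = 0.892), Tal1 to Tmem44 (r = 0.898) and Kdr, the VEGF receptor (r = 0.898). Nr2f2 was closest to the mesenchymal genes Prelp (r = 0.943) and Bgn (r = 0.934), and Mef2c to Cd40 (r = 0.755), a receptor of B cells. Klf2 (Tspan13, r = 0.784) and Klf4 (Cd2ap, r = 0.802) had no gene above 0.81.

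**Figure D5:**
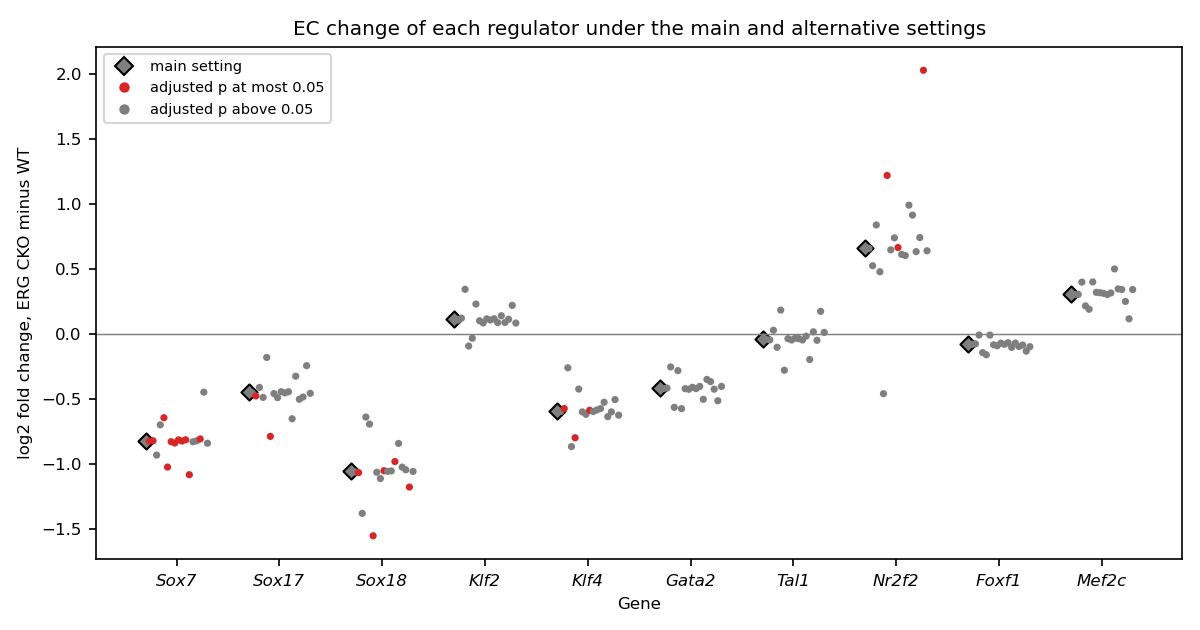
Log2 fold change of each gene in ECs (ERG CKO minus WT, vertical axis) under the main setting (diamonds) and each of 17 alternatives (points), in red where the adjusted p was at most 0.05. Sox7 stays between -1.08 and -0.45 and Sox18 between -1.55 and -0.64, whereas Nr2f2 runs from -0.46 to 2.03 and Tal1 and Klf2 lie on both sides of 0.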

How the data were processed

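Whole lungs of 2 WT and 2 ERG CKO mice were profiled cell by cell on the 10x Genomics GemCode platform and sequenced on a NextSeq 500. Lungs were dissociated with the Miltenyi kit by the design text and with Liberase and DNase by the study's methods. The matrix the authors deposited holds whole-number UMI counts for each gene in each cell, made per the labels' processing notes with Cell Ranger 3.1.0 and mm10. The study names a quality filter without its limits, and all 9363 deposited barcodes were used. Nothing states that the mice were littermates, so p-values measure the spread between 2 mice per group. The 10 genes and all gene lists were chosen with earlier results of these data known.

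Cells were clustered in Seurat 5.3.0 (R 4.3.3; 2000 variable genes without the members, Erg, Xist and Y-linked genes, CCA alignment, 30 dimensions and resolution 0.8, or 20 and 0.6 for ECs). Clusters were named from at least 3 markers found in at least 10% of cells with a log2 fold of at least 1. For EC subtypes a marker only had to be no lower than in the other ECs. Cell names were rebuilt here, which can alone set results apart from the study's. Scrublet (scanpy 1.11.5) called 60 doublets (0.641%), which were kept. Counts were summed per mouse and class and tested with edgeR 4.0.16 (TMM, filterByExpr, quasi-likelihood test, Benjamini-Hochberg over all genes tested, threshold 0.05, at least 10 cells in every library). DESeq2 1.42.0 was an alternative. CPM are the summed counts scaled to the total UMIs of the class and library. Tests were checked on simulated data.

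Named were the members, Erg, up to 4 called genes of each list in the EC fit by size of change (or the smallest p), and the 3 genes most like each member, with other names marked as chosen after their values were seen. The values of 1 further called list gene are not reported here. The study's cell-by-cell comparison was not used.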

Additional observations from a re-analysis of the deposited data

Results flagged for a closer look

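The changes of 3 members differed between aCap and gCap ECs when the difference itself was tested. The aCap change minus the gCap change, on the log2 scale, was 1.48 for Sox17 (SE 0.40, adjusted p = 0.0294), with -0.49 in gCap and 0.96 in aCap ECs. It was 1.05 for Sox7 (SE 0.26, adjusted p = 0.0184), with -0.81 and 0.23. It was -0.66 for Sox18 (SE 0.18, adjusted p = 0.0331), with -0.93 and -1.60. Leaving out 1 library at a time gave 0.86 to 2.17 for Sox17, 0.85 to 1.26 for Sox7 and -0.79 to -0.49 for Sox18.

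Sox11, a gene of the list of other Klf and Sox family genes, differed in the same test by 3.099 (SE 0.31, adjusted p = 3.0e-06), and passed in 7 of 7 alternatives, between 2.40 and 3.73. The aCap markers summed to 16432 and 16498 CPM in WT aCap ECs and to 5596 and 7892 CPM in ERG CKO aCap ECs, and their part in these differences was not tested.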

How the results depend on the processing

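Of 588 alternative values for 55 results, 455 kept their direction and side of the threshold or, for counts and shares, moved within a set limit. A further 43 counts or shares moved beyond it. Direction reversed for 17 values, 31 newly passed the threshold and 42 no longer did. The count of members called in ECs, 0 as reported, was 1 with RLE size factors, DESeq2, doublets left out, no alignment, at most 10% mitochondrial UMIs and named subtypes only (Sox7 each time), 2 with thinned cells and with gCap and aCap given equal weight, 4 with no filter and 0 to 4 without single replicates. In gCap ECs the count was 4 with no filter, 1 with thinned cells and 0 to 4 without single replicates. In aCap ECs, where it was 1, it was 2 with RLE size factors and doublets left out, 3 with no alignment and no filter, and 1 to 3 without single replicates. No aCap cluster was found at resolution 0.4. The count of pairs in other classes, 1 as reported, was 2 with doublets left out and 2 to 6 without single replicates, and that of differences between aCap and gCap, 3 as reported, was 0 to 2 over the single replicates that moved it.

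Replicate numbers are shared between groups. The labels do not say that they pair the mice, but in both groups replicate 1 had UMIs of Xist and replicate 2 of Ddx3y, so that a block on the number is also one on sex as read from these genes. The differences of replicate 1 minus 2 correlated at 0.23 between groups over genes. With a replicate block, 4 members passed in ECs (Sox7 -0.82, Sox17 -0.48, Sox18 -1.07 and Klf4 -0.57), 4 in gCap ECs, 3 in aCap ECs and 8 pairs in other classes.

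Sox7 in ECs passed at -0.82 with RLE size factors and DESeq2, -0.83 without doublets, -0.84 without alignment, -0.81 with no filter, -0.81 with at most 10% mitochondrial UMIs, -1.08 with thinned cells and -0.81 in named subtypes. Sox18 passed at -1.05 with no filter, -0.98 with thinned cells and -1.18 with equal weights, Klf4 at -0.59 with no filter, and Nr2f2 at 0.67 with no filter and 2.03 with equal weights. Tal1 turned to 0.018 with single-cell gating, 0.18 with equal weights and 0.014 with the low-depth cluster added, a setting chosen after seeing the data. Without single replicates the ranges were -1.02 to -0.64 (Sox7), -0.79 to -0.18 (Sox17), -1.55 to -0.64 (Sox18), -0.091 to 0.35 (Klf2), -0.86 to -0.26 (Klf4), -0.28 to 0.19 (Tal1) and -0.46 to 1.22 (Nr2f2). For the aCap minus gCap difference they were 0.85 to 1.26 (Sox7), 0.86 to 2.17 (Sox17), -0.79 to -0.49 (Sox18), -0.36 to 0.41 (Klf4), -0.46 to 0.27 (Gata2) and -0.31 to 0.19 (Mef2c), and Klf4 (0.00) turned to -0.0092 without doublets and -0.35 without alignment, where Mef2c turned to 0.042.

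The log2 ratio of the share of ECs with a UMI moved from -0.98 to -0.67 (500 UMIs) and -0.38 (all UMIs) for Sox7, from -0.56 to -0.33 and -0.20 for Sox17, and from 0.04 to 0.21 and 0.29 for Tal1. With all UMIs it moved to -0.34 for Sox18, -0.12 for Klf4 and -0.068 for Gata2. The cause of these shifts was not tested. With 1 replicate left out, a lone library is assumed to vary like those of the other group. Depth limits Sox17, Nr2f2 and Tal1 in aCap ECs, with 0 to 47 UMIs per library.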
